A study of Mus musculus with 9 samples.

Results

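Secreted carriers of serum, 5 in number, were measured in mouse embryoid body differentiation: Afp (alpha-fetoprotein), Alb (albumin), Ttr (transthyretin), Rbp4 (retinol-binding protein 4) and Trf (transferrin). They were taken by their gene symbols from a table of 54232 Ensembl genes, in which all 5 were found. Embryoid bodies are aggregates of embryonic stem cells in which cells leave the pluripotent state and form derivatives of the germ layers and of extraembryonic endoderm. The samples were wild-type (WT) mouse embryonic stem cells in 3 groups, labelled EBD2, EBD5 and EBD6 differentiation, with 3 libraries each and no further treatment or allele. The labels do not say what the number in a group's name stands for, which stem cell line was used, or that replicates came from different cultures; the spread behind each p-value is that of these samples and may be technical. The measurement was RNA-seq of polyadenylated RNA.

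Visceral endoderm is the extraembryonic epithelium that covers the epiblast, takes up nutrients at its outer face and secretes serum proteins before the fetal liver takes over that role. Alpha-fetoprotein is the main serum protein of the mouse fetus, and albumin, encoded by the gene next to it, is the main one after birth. Transthyretin carries thyroid hormone and also binds retinol-binding protein 4, which carries vitamin A. Transferrin carries iron, and cells take it up through its receptor.

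Libraries held 5453412 to 11703371 counts. EBD2 replicates 1 and 2, and EBD6 replicates 2 and 3, agree within sampling noise (chi-square per gene 0.949 and 1.01), and each pair was counted as 1 sample, which leaves n = 2, 3 and 2 samples in EBD2, EBD5 and EBD6. Levels are CPM, read counts scaled to a common library size, over TMM-scaled library sizes, and levels of different genes are compared only per kilobase of exon. The EBD5 libraries stood apart in RNA classes that oligo-dT capture mostly removes: nuclear rRNA genes took 0.726% to 0.811% of their counts, against 0.0165% to 0.0207% in EBD2 and 0.0192% to 0.0247% in EBD6. Mitochondrial rRNA took 0.520% to 0.546% in EBD5, against at most 0.0168% in every other library. The part of these classes in the comparisons with EBD5 was not tested. EBD6 against EBD2 does not compare those libraries, but they enter its filter, scaling and spread through the shared fit. The 12 visceral endoderm markers were all detected in EBD5 and EBD6, with a summed level of 541 to 666 CPM in EBD2, 3823 to 3846 CPM in EBD5 and 2260 to 2431 CPM in EBD6. In bulk RNA, fewer cells of a type and less RNA per cell cannot be told apart.

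Afp was nearly silent in EBD2, at 4, 2 and 2 counts in replicates 1 to 3. The count rose to 411, 423 and 372 in EBD5, and to 825, 1469 and 1600 in EBD6. In CPM, the EBD2 libraries lay between 0.328 and 0.681, the EBD5 libraries between 71.4 and 75.1, and the EBD6 libraries between 128 and 146. The 3 groups did not overlap, and the order was EBD2, EBD5, EBD6 from low to high. Group means were 0.424 ± 0.103 CPM (SD, n = 2), 71.4 ± 1.97 CPM (SD, n = 3) and 137 ± 10.7 CPM (SD, n = 2). Afp lies on chromosome 5 (mm10, chr5:90490737-90508907, plus strand, ENSMUSG00000054932).

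Ttr was listed at 1, 0 and 2 counts in EBD2 replicates 1 to 3. It reached 467, 373 and 429 counts in EBD5 and 536, 862 and 1019 counts in EBD6. Scaled to depth, EBD5 replicates 1 to 3 stood at 85.3, 63.5 and 82.3 CPM, and EBD6 replicates at 95.2, 78.0 and 81.8 CPM. Every EBD5 and EBD6 library was far above every EBD2 library, while EBD5 and EBD6 overlapped, with EBD5 replicate 2 the lowest of the 6. Means were 75.5 ± 11.7 CPM (SD, n = 3) in EBD5 and 86.8 ± 10.3 CPM (SD, n = 2) in EBD6. Ttr lies on chromosome 18 (mm10, chr18:20665280-20674321, plus strand, ENSMUSG00000061808).

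Rbp4, the partner of transthyretin in serum, was low but present in EBD2, with 16, 16 and 19 counts. It had 320, 404 and 309 counts in EBD5 and 625, 1074 and 1219 in EBD6. That is 2.62 to 3.37 CPM in EBD2, 58.5 to 68.8 CPM in EBD5 and 97.2 to 111 CPM in EBD6. As with Afp, the 3 groups did not overlap and the level was highest in EBD6. Means were 2.99 ± 0.483 CPM (SD, n = 2), 60.9 ± 5.52 CPM (SD, n = 3) and 103 ± 9.08 CPM (SD, n = 2). Rbp4 lies on chromosome 19 (mm10, chr19:38116629-38125281, minus strand, ENSMUSG00000024990).

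Trf had the highest count of the 5 genes in EBD2 and the shallowest rise. Its expected counts, which can be fractions where reads fit more than 1 gene, were 48.22, 44.51 and 25.12 in EBD2, 85, 81 and 87 in EBD5, and 118, 291 and 347 in EBD6. The levels were 8.17, 7.37 and 4.43 CPM in EBD2, 15.5, 13.8 and 16.7 CPM in EBD5, and 20.9, 26.3 and 27.9 CPM in EBD6. The groups did not overlap, but the rise from EBD2 was small beside that of the other detected carriers. Means were 6.05 ± 2.35 CPM (SD, n = 2), 15.0 ± 1.45 CPM (SD, n = 3) and 23.8 ± 4.41 CPM (SD, n = 2). Trf lies on chromosome 9 (mm10, chr9:103204001-103230444, minus strand, ENSMUSG00000032554).

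Trf shares its locus with Gm20425, an annotated gene on the same strand that spans chr9:103190208-103230307 and so covers most of Trf. The counting assigned 1.23, 16.68 and 19.72 expected counts to Gm20425 in EBD2 replicates 1 to 3 and 0 in every EBD5 and EBD6 library. EBD2 replicate 3, the lowest library for Trf, was the highest for Gm20425. Summed over both genes, the EBD2 libraries stood closer together, at 8.34, 10.2 and 7.98 CPM. The split of reads between these genes is therefore uncertain in EBD2, and the fold of Trf against EBD2 is given below both ways.

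Alb had 0 counts in all 9 libraries. A count of 0 among 63308314 effective counts allows a level of up to 0.0474 CPM over all libraries, and up to 0.170, 0.181 and 0.103 CPM in EBD2, EBD5 and EBD6 (3 counts per group). Per kilobase of exon, that allows Alb at most 0.358% of the Afp level in EBD5 and 0.111% in EBD6. These limits cover counting error only. Alb lies directly upstream of Afp (mm10, chr5:90460897-90476602, plus strand, ENSMUSG00000029368).

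**Figure D1:**
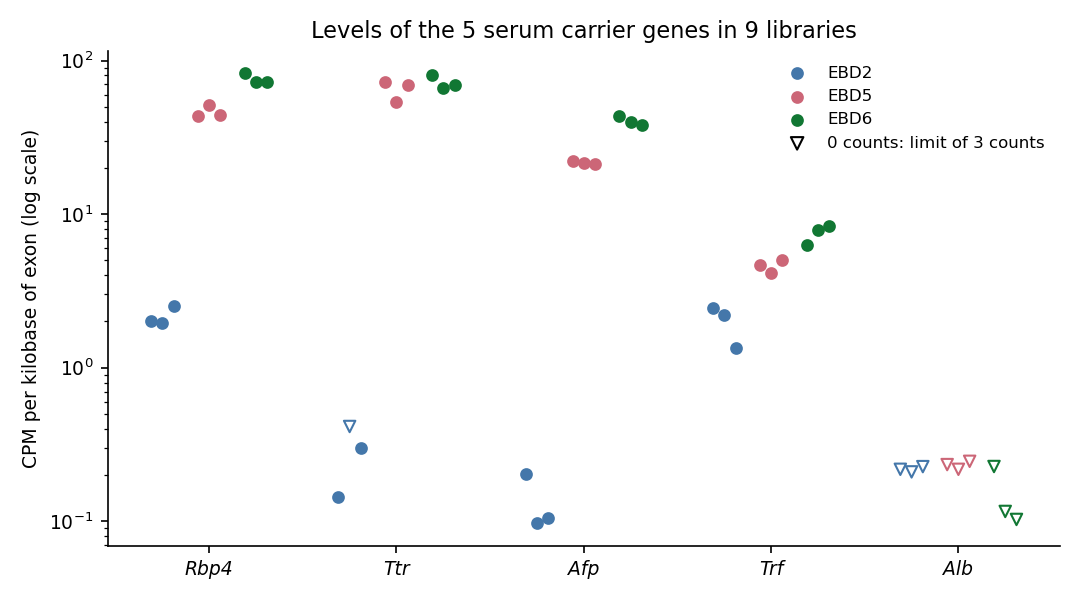
Level of each carrier gene in each of the 9 libraries, in CPM per kilobase of merged exon on a log scale; points are libraries, coloured by group, and open triangles mark the level that 3 counts would give where a library had 0. Afp and Rbp4 step up from EBD2 to EBD5 to EBD6 without overlap, Ttr overlaps between EBD5 and EBD6, Trf moves least from EBD2, and Alb is at 0 throughout.

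Set beside each other per length, the detected carriers changed order. In EBD2, Rbp4 (2.23 CPM per kilobase) and Trf (1.82) stood above Ttr (0.183) and Afp (0.126), and neither of those pairs differed beyond the spread of its libraries. In EBD5 the order was Ttr (63.7 CPM per kilobase), Rbp4 (45.4), Afp (21.2) and Trf (4.53), with no overlap between neighbours. In EBD6 Rbp4 (76.9 CPM per kilobase) and Ttr (73.2) overlapped, above Afp (40.8) and Trf (7.18). Alb was last in each group. Among 16156 ranked genes, Rbp4 moved from place 11354 in EBD2 to 1083 in EBD5 and 269 in EBD6, and Ttr from 15226 to 607 and 302. Afp climbed from place 15449 to 3196 and 1089, and Trf from 11842 to 9483 and 7933.

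The first comparison asked how the carriers differed between EBD5 and EBD2. Of the 5, 4 passed the filter on low counts, and all 4 were called higher in EBD5; over all 16168 tested genes, 34.9% were called higher and 35.1% lower (70.0% in either direction). Afp was 154-fold higher (log2 fold change 7.27 ± 0.17 SE, edgeR adjusted p = 1.59e-10). Rbp4 was 21.1-fold higher (log2 4.40 ± 0.16 SE, edgeR adjusted p = 2.54e-09). Trf was 2.32-fold higher (log2 1.21 ± 0.22 SE, edgeR adjusted p = 0.000512), and with Gm20425 added to it the log2 fold change was 0.78 (edgeR adjusted p = 0.0017). For Ttr, 1269 counts in EBD5 stood against 3 in EBD2, and the scaled ratio was 450 with a 95% counting interval of 154 to 2186. That ratio was 294 without EBD2 replicate 2 and 918 without EBD2 replicate 3, which leaves 1 count in EBD2.

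The visceral endoderm markers moved in the same direction: 11 of 12 were higher in EBD5, none lower and 1 had no call, with a median log2 fold change of 5.45 against -0.01 over all tested genes. Of all tested genes, 34.9% were called higher and 35.1% lower. Cubn, the gene of the uptake receptor cubilin, went from 4.05 ± 0.0169 CPM (SD, n = 2) to 1121 ± 12.3 CPM (SD, n = 3). Apob, the apolipoprotein of secreted lipoprotein particles, had a log2 fold change of 8.03 ± 0.15, and Dab2, an endocytic adaptor, of 5.59 ± 0.11 (edgeR adjusted p = 5.23e-11 for each). Apoe, which was already at 457 CPM in EBD2, was the marker without a call (log2 -0.22 ± 0.10, edgeR adjusted p = 0.0711).

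The second comparison, EBD6 against EBD5, shares the EBD5 libraries with the first. Afp, Rbp4 and Trf were called higher in EBD6, Ttr was not called and none was lower; over all tested genes 36.9% were called higher and 33.3% lower (70.2% in either direction). Afp was 1.91-fold higher (log2 0.94 ± 0.07 SE, edgeR adjusted p = 6.65e-07), and Rbp4 was 1.68-fold higher (log2 0.75 ± 0.09 SE, edgeR adjusted p = 2.13e-05). Trf was 1.63-fold higher (log2 0.71 ± 0.18 SE, edgeR adjusted p = 0.0042), although it was not called when tested against a fold of 1.5. Ttr had a log2 difference of 0.19 ± 0.12 SE (edgeR adjusted p = 0.195). After centring genes of like GC content and exon length on their median, which carries no test, the 4 log2 values became 1.04 for Afp, 0.81 for Ttr, 0.28 for Trf and 0.23 for Rbp4. The exons of Afp and Ttr are 46.1% and 46.5% GC, below the 49.5% median of the tested genes, and those of Trf and Rbp4 are 52.5% and 55.6%.

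While those 3 carriers rose, the visceral endoderm markers divided, with 5 of 12 higher and 7 lower in EBD6 and a median log2 fold change of -0.46 against 0.04 over all tested genes. Of all tested genes, 36.9% were called higher and 33.3% lower. Cubn fell by 1.47 on the log2 scale to 404 ± 6.35 CPM (SD, n = 2; edgeR adjusted p = 2.39e-08). Apoa4 (log2 -1.82 ± 0.12) and Apoa1 (log2 -1.22 ± 0.10), apolipoproteins of secreted lipoproteins, also fell, as did Dab2 (log2 -0.86 ± 0.08), Apob (log2 -0.83 ± 0.09) and the transcription factor gene Hnf4a (log2 -0.75 ± 0.07; edgeR adjusted p of 6.81e-06 or less for these 5). Those that rose included Amn (log2 1.97 ± 0.15, edgeR adjusted p = 8.63e-07), whose product amnionless anchors cubilin at the membrane, and Ihh (log2 1.54 ± 0.14, edgeR adjusted p = 2.31e-06), a hedgehog signal of visceral endoderm.

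**Figure D2:**
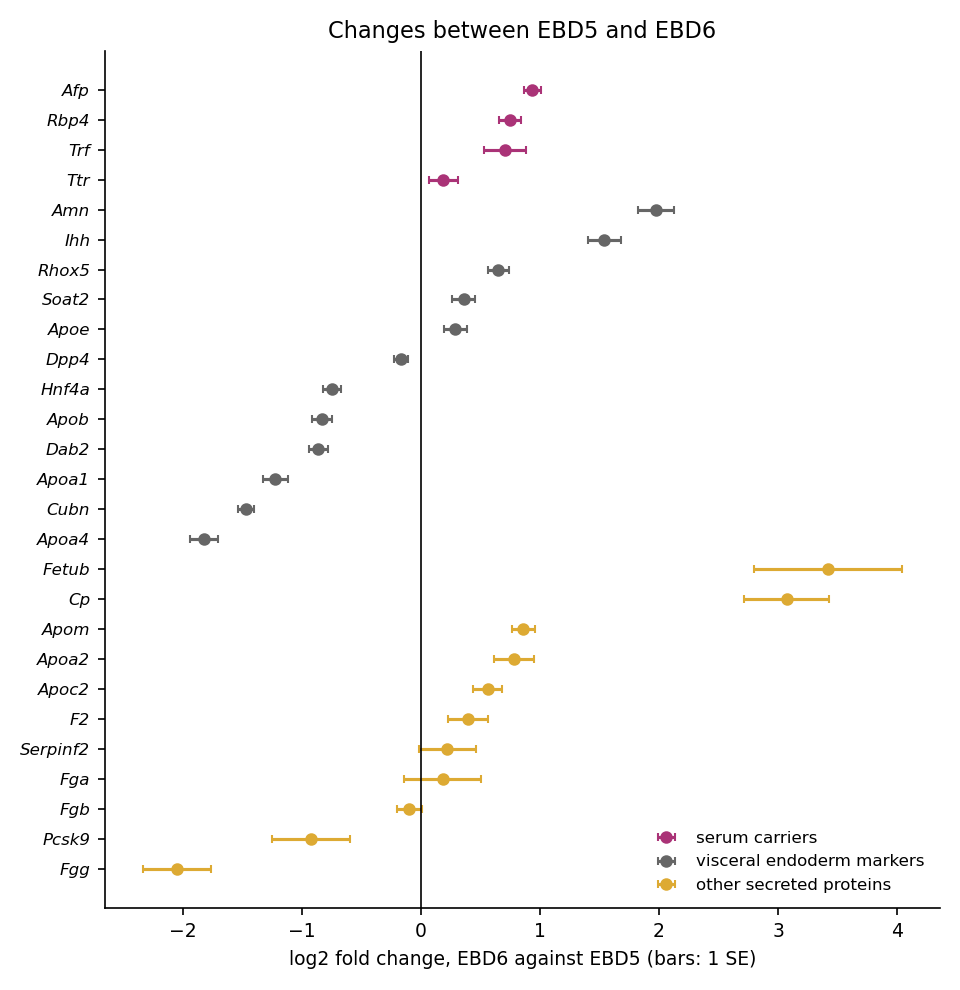
Log2 fold change of EBD6 against EBD5 for the 4 tested carriers, the 12 visceral endoderm markers and the other tested secreted proteins, from the fit over all genes; points are estimates, bars are 1 SE, and a gene with 3 counts or fewer in either group (Hpx) is not drawn. The carriers lie between 0.19 and 0.94, while the markers run from -1.82 (Apoa4) to 1.97 (Amn).

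Expressed as a share of the summed CPM of the 12 markers, Afp was 1.86% to 1.96% in the EBD5 libraries and 5.68% to 6.02% in the EBD6 libraries. Rbp4 stood at 1.52% to 1.80% in EBD5 and 4.26% to 4.56% in EBD6. Ttr, whose own level overlapped between the groups, was 1.66% to 2.22% of the marker sum in EBD5 and 3.42% to 3.91% in EBD6. Trf was 0.361% to 0.434% in EBD5 and 0.862% to 1.23% in EBD6. For each of these 4 genes the share was higher in every EBD6 library than in every EBD5 library. These shares are a description without a test, and they depend on which genes make up the marker sum, which Cubn leads in EBD5 and Apob in EBD6. In EBD2 most of the sum is Apoe, at 457 CPM beside a sum of 541 to 666 CPM.

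**Figure D3:**
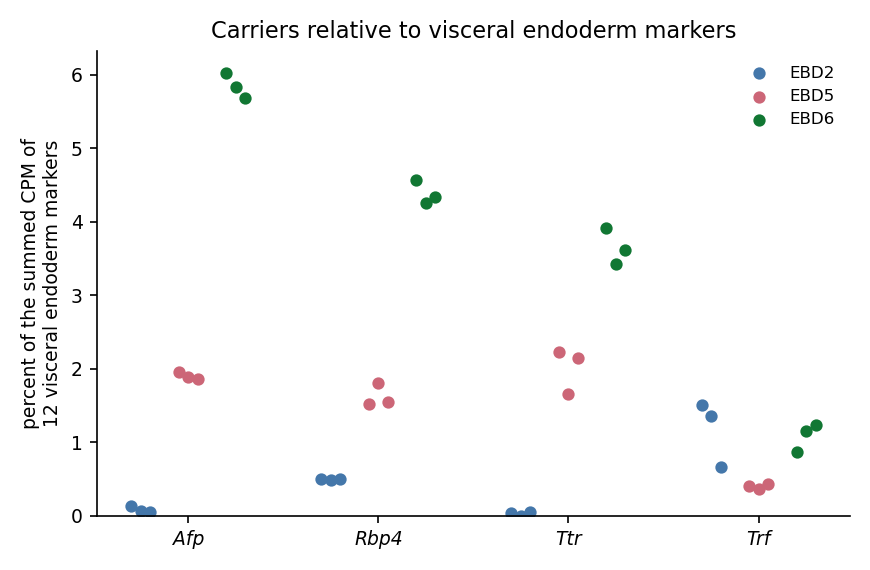
Level of each detected carrier as a percent of the summed CPM of 12 visceral endoderm markers, 1 point per library and coloured by group. For each gene, every EBD6 point lies above every EBD5 point, while Trf in EBD2 (0.665% to 1.51%) overlaps EBD6. Most of the marker sum in EBD2 is Apoe.

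In EBD6 against EBD2, Afp, Ttr, Trf and Rbp4 were called higher; over all tested genes 33.8% were called higher and 32.3% lower (66.1% in either direction). Afp was 294-fold higher (log2 8.20 ± 0.16 SE, edgeR adjusted p = 1.2e-10). Rbp4 was 35.4-fold higher (log2 5.15 ± 0.15 SE, edgeR adjusted p = 6.64e-10). Trf was 3.78-fold higher (log2 1.92 ± 0.21 SE, edgeR adjusted p = 1.43e-05), or a log2 fold change of 1.49 with Gm20425 added. Ttr had a ratio of 487 with a 95% counting interval of 167 to 2365, which was 318 without EBD2 replicate 2 and 994 without EBD2 replicate 3.

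The albumin family genes sit together on chromosome 5, and Afp was the only one of them called higher in these samples. Afp starts 14.135 kb after the end of Alb, and Afm, which encodes the vitamin E carrier afamin, starts 10.025 kb after the end of Afp. Gc, the vitamin D-binding protein gene, lies further upstream on the other strand (chr5:89417522-89457898). Gc had 67 counts in EBD2, 11 in EBD5 and 15 in EBD6, and was lower in EBD5 than in EBD2 (log2 -2.51 ± 0.37, edgeR adjusted p = 9.99e-05). Afm had 34, 16 and 20 counts in the 3 groups and was also lower in EBD5, at 0.938 ± 0.210 CPM (SD, n = 3) against 1.87 ± 0.165 CPM (SD, n = 2; edgeR adjusted p = 0.0495). Against EBD2, EBD6 was lower as well, with log2 -2.80 ± 0.36 for Gc (edgeR adjusted p = 4.61e-05) and -1.39 ± 0.41 for Afm (edgeR adjusted p = 0.0119). In EBD6 against EBD5 neither was called, and Afp was the family member called higher. Gm43449, an antisense gene that overlaps Afp, had 0, 5 and 5 counts in EBD2, EBD5 and EBD6, against 1206 for Afp in EBD5 and 3894 in EBD6; the strand setting of the counting is not given in the sources used here.

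**Figure D4:**
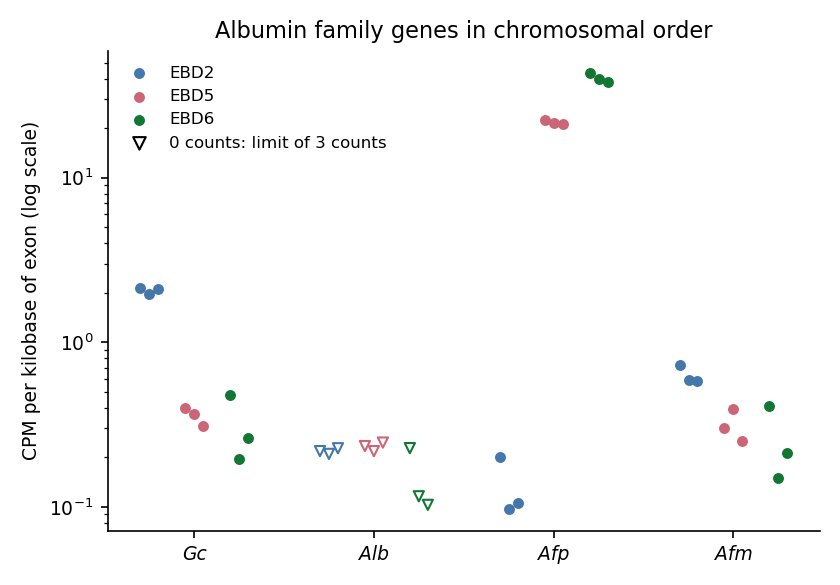
Level of the 4 albumin family genes in their order on chromosome 5, in CPM per kilobase of exon on a log scale, with 1 point per library; open triangles mark the level of 3 counts where a library had 0. Afp rises from EBD2 to EBD6, Gc and Afm are highest in EBD2, and Alb is at 0 in all 9 libraries.

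The promoters of Alb and Afp are shown because these neighbouring genes parted, with Afp called higher and Alb at 0. The windows are the 250 bases before each RefSeq gene start (GRCm38.p6), read 5′ to 3′ on the plus strand, Alb chr5:90460620-90460869 and Afp chr5:90490464-90490713. Capitals mark TGTTTGC, a forkhead factor motif, on either strand, so that it reads GCAAACA where it lies on the minus strand.
Alb: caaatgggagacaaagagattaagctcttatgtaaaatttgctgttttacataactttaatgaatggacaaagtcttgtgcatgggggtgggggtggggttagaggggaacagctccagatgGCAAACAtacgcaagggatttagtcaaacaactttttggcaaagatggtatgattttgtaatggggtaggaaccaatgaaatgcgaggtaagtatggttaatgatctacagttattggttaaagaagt
Afp: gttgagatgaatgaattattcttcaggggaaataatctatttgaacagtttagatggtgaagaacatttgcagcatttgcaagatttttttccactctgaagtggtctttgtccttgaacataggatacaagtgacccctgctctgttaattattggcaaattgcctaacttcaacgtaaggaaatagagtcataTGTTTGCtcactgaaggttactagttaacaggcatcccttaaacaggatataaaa
TGTTTGC, which 4.30% of 32851 promoter windows of the same length held on either strand, began 128 bases before the start in Alb (minus strand) and 55 bases before it in Afp. It was in neither the Gc nor the Afm window. TATAAA, found in 12.4% of windows, was in Afp at 7 bases and in Afm at 30 bases. CCAAT, found in 33.8% of windows, was in all 4 family windows, in Afp at 98 bases on the minus strand and in Alb at 56 bases and, on the minus strand, at 15. The motifs TGTTTAC (3.17% of windows), AGATAA (9.99%) and CAAAGTCCA (0.384%) were in none of the 4. Both strands were searched throughout, no matches overlapped, and a match is a description of letters, not of binding. Positions are counted from the RefSeq starts, which for Alb and Afp lie upstream of the GENCODE starts given above. Rbp4 has windows at 2 RefSeq starts: one held TGTTTAC at 241 bases and CCAAT at 162, both on the minus strand, and the other TATAAA at 28.

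Genes next to the carriers on the chromosome moved in both directions. Beside Alb, Ankrd17 had a log2 fold change of 0.17 in EBD5 against EBD2 (edgeR adjusted p = 0.0319). Next to Ttr, Dsg2, a desmosomal cadherin, was higher (log2 0.80, edgeR adjusted p = 9.54e-06) and B4galt6, a galactosyltransferase, was higher by less (log2 0.26, edgeR adjusted p = 0.00288). Srprb, a signal recognition particle receptor subunit next to Trf, rose in EBD5 against EBD2 (log2 0.42, edgeR adjusted p = 0.000527) and in EBD6 against EBD5 (log2 0.48, edgeR adjusted p = 0.000108). Near Rbp4, Cep55 fell by 0.22 on the log2 scale in EBD5 (edgeR adjusted p = 0.00459) and Fra10ac1 fell by 2.16 (edgeR adjusted p = 5.79e-08). Pde6c, a phosphodiesterase gene at 1, 25 and 62 counts, was the neighbour with the steepest rise, from a count of 1 in EBD2.

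Other carriers of vitamin A and iron followed separate courses. Of 10 relatives of the 5 genes, 6 were tested. In EBD5 against EBD2, 1 was higher and 4 lower (median log2 -0.89, against -0.01 over all tested genes). In EBD6 against EBD5, 2 were higher and none lower (median log2 0.34, against 0.04). The shares of all tested genes called higher and lower were 34.9% and 35.1% in the first comparison and 36.9% and 33.3% in the second. Crabp1 and Crabp2, cellular retinoic acid-binding protein genes, fell in EBD5 by 1.74 and 0.60 on the log2 scale and rose in EBD6 by 2.41 and 0.75 (edgeR adjusted p of 0.000668 or less for each). The transferrin relative Ltf, lactoferrin, was at 0 counts in EBD2 and EBD5 and had 10 in EBD6. Meltf, melanotransferrin, had 28, 6 and 30 counts and was not tested.

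Of 9 receptor and uptake genes for the carriers or their ligands, 4 were higher, 3 lower and 2 without a call in EBD5 against EBD2; in EBD6 against EBD5 the counts were 2 higher, 3 lower and 4 without a call. The first count lies near the shares over all tested genes (34.9% higher and 35.1% lower). For the second count those shares were 36.9% higher and 33.3% lower. Amn, at 3 counts in EBD2, and Cubn, at 72, are among the 9 and are also visceral endoderm markers, described above. Tfrc, the transferrin receptor, was at 195 ± 12.5 CPM (SD, n = 2) in EBD2 and 237 ± 8.27 CPM (SD, n = 3) in EBD5 (log2 0.29 ± 0.07, edgeR adjusted p = 0.00361). Tfr2, a second transferrin receptor, fell (log2 -1.04 ± 0.40, edgeR adjusted p = 0.0376). Lrp2, or megalin, takes up retinol-binding protein and other carriers; it rose by log2 1.44 ± 0.07 in EBD5 and fell by 1.64 in EBD6 (edgeR adjusted p = 1.72e-08 and 1.52e-08). Stra6, a membrane receptor for retinol-binding protein 4, went the other way, with log2 -1.06 ± 0.19 and then 1.07 ± 0.18 (edgeR adjusted p = 0.000475 and 0.000337). Fcgrt, the albumin-binding Fc receptor, was expressed while Alb was at 0, and fell by 0.76 on the log2 scale in EBD5 (edgeR adjusted p = 0.0111).

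Among other serum proteins that visceral endoderm and liver both secrete, 16 of 24 were tested. In EBD5 against EBD2, 10 rose and 3 fell (median log2 3.14, against -0.01 over all tested genes), while 34.9% of all tested genes were higher and 35.1% lower. In EBD6 against EBD5, 7 rose and 5 fell (median log2 0.26, against 0.04). That count lies near the shares over all tested genes (36.9% higher and 33.3% lower). EBD6 against EBD2 gave 11 higher and 3 lower, with a median log2 of 3.85 when genes at 0 to 3 counts enter at their bound or ratio and 4.69 from the fit. In that comparison 33.8% of all tested genes were higher and 32.3% lower. Apoa1 rose by log2 8.49 ± 0.24 in EBD5 (edgeR adjusted p = 5.79e-10), and Apom, a carrier of sphingosine 1-phosphate, by 2.84 ± 0.15 (edgeR adjusted p = 4.04e-08). Fgb, the fibrinogen beta chain, had 1 count in EBD2, 616 in EBD5 and 999 in EBD6, and was not called between the latter (log2 -0.10 ± 0.10, edgeR adjusted p = 0.411). Hpx, the heme carrier hemopexin, was high in EBD6 alone, at 338 counts beside 2 each in EBD2 and EBD5. Its level in EBD6 was 96.1 times that in EBD5 (95% counting interval 26.4 to 796). Cp, the copper protein ceruloplasmin, had 15 counts in EBD5 and 225 in EBD6 (log2 3.07 ± 0.36, edgeR adjusted p = 1.81e-05). Fetub fell from 481 counts in EBD2 to 5 in EBD5 and stood at 99 in EBD6. Liver genes of the list that stayed at or near 0 included Serpina1a, with 0 counts in all libraries, and Hp, with 8, 0 and 8 counts.

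Transcription factors known to act on carrier genes in liver or yolk sac were mostly higher in EBD5 than in EBD2, with 10 of 14 higher, 3 lower and 1 without a call (median log2 1.73, against -0.01 over all tested genes). The shares over all tested genes were 34.9% higher and 35.1% lower. Foxa2, a forkhead factor of endoderm, rose by log2 6.21 ± 0.23 (edgeR adjusted p = 3.43e-09). Sox17, Gata6, Hnf4a and Gata4, factors of early endoderm, rose by log2 4.94 ± 0.32, 4.20 ± 0.15, 4.01 ± 0.11 and 3.16 ± 0.09 (edgeR adjusted p of 2.16e-07 or less for each). Cebpa, a factor of the adult liver, fell by 1.85 on the log2 scale (edgeR adjusted p = 0.000706).

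Between EBD5 and EBD6, 7 of the 14 rose, 3 fell and 4 had no call (median log2 0.26); over all tested genes 36.9% were higher and 33.3% lower, with a median log2 of 0.04. Hnf4a fell by 0.75 on the log2 scale (edgeR adjusted p = 4.87e-06), and Gata6 fell by 0.33 (edgeR adjusted p = 0.00831). Cebpa rose by log2 2.85 ± 0.31 (edgeR adjusted p = 9.98e-06) and Sox17 by 1.49 ± 0.14 (edgeR adjusted p = 4.28e-06). Zbtb20 and Zhx2 are known as repressors of Afp in mouse liver. Zbtb20 was not called in any comparison, at 37.3, 41.7 and 40.9 CPM in EBD2, EBD5 and EBD6. Zhx2 was higher in EBD5 than in EBD2 (log2 1.96 ± 0.22, edgeR adjusted p = 1.57e-05). It was also higher in EBD6 than in EBD5 (log2 0.44 ± 0.17, edgeR adjusted p = 0.0349).

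**Figure D5:**
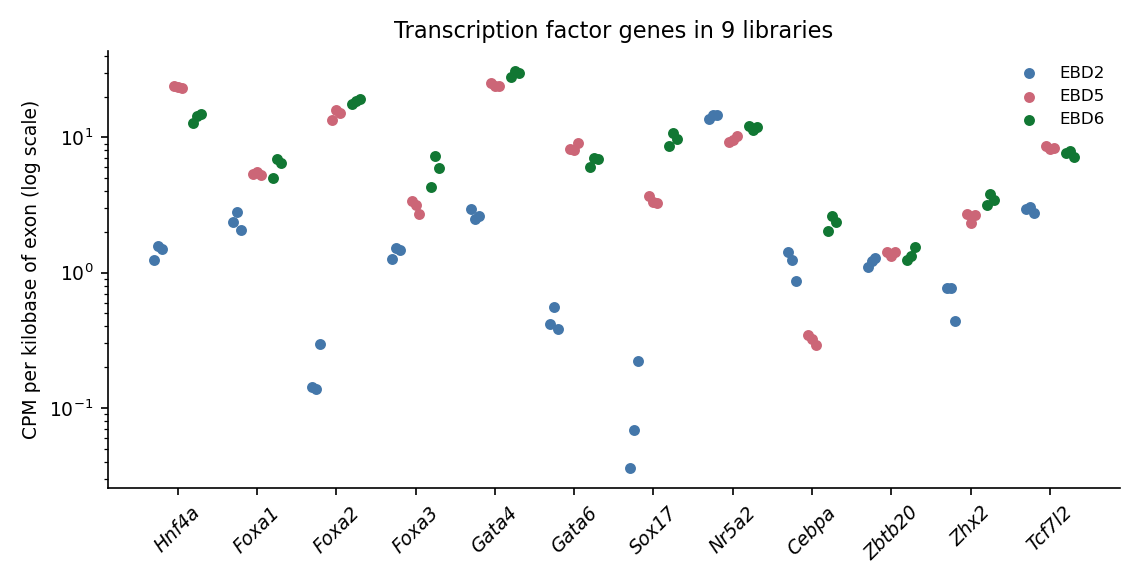
Level of 12 transcription factor genes of that list in each library, in CPM per kilobase of exon on a log scale, coloured by group. Most stand higher in EBD5 and EBD6 than in EBD2, Hnf4a is highest in EBD5, and Cebpa is lowest there.

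Other cell types make some of the carriers too, and their markers were read beside the result. Hepatocytes make all 5, but the summed level of 12 hepatocyte markers was 21.1 to 28.4 CPM in EBD2, 7.68 to 10.2 CPM in EBD5 and 12.6 to 16.2 CPM in EBD6, with G6pc, Cyp2e1 and Apoh among those at 0 in all libraries. The 6 markers of choroid plexus epithelium, a source of transthyretin, summed to 48.0 to 52.8 CPM in EBD2, 311 to 343 CPM in EBD5 and 330 to 355 CPM in EBD6. That sum was carried by Clic6 and Folr1, while Kl and Kcne2 had 9 counts or fewer per group. The 6 markers of oligodendrocytes and Sertoli cells, sources of transferrin, summed to 54.9 to 59.0, 51.4 to 55.0 and 70.8 to 76.0 CPM. Sox10 fell, while Mbp rose and led the sum in EBD5 and EBD6, at means of 32.4 and 61.4 CPM. Of the 4 tested, 1 was higher and 3 lower than in EBD2, both in EBD5 and in EBD6. Over all tested genes, 34.9% were higher and 35.1% lower in EBD5 against EBD2, and 33.8% and 32.3% in EBD6 against EBD2. The 4 adipocyte markers, for a source of retinol-binding protein 4, summed to at most 7.23 CPM, and Adipoq and Fabp4 had 4 counts or fewer per group.

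Markers of other endoderm moved as well. The 9 parietal endoderm markers summed to 317 to 350, 1723 to 1823 and 2778 to 2931 CPM in EBD2, EBD5 and EBD6, and 10 markers of definitive endoderm and gut to 266 to 277, 404 to 441 and 543 to 578 CPM. Most of that gut sum in EBD2 was Trh, at a mean of 213 CPM, against 129 CPM in EBD5. Of the 9 tested in this list, 8 rose and 1 fell in EBD5 against EBD2. Their median log2 was 2.38 from the fit and 2.11 with low counts at their bound or ratio. Over all tested genes, 34.9% were called higher and 35.1% lower. The 6 markers of anterior visceral endoderm summed to 383 to 411, 561 to 590 and 249 to 255 CPM, led by Otx2, which pluripotent cells also express. The 5 pluripotency markers summed to 1108 to 1268, 847 to 925 and 847 to 963 CPM, so every EBD5 and EBD6 library lay below every EBD2 library. Sox2 led this sum in EBD2, Pou5f1 in EBD5 and Esrrb in EBD6. Between EBD2 and EBD5, 1 of these markers rose, 2 fell and 2 had no call. Between EBD2 and EBD6, 2 fell and 3 had no call, while 33.8% of all tested genes rose and 32.3% fell. Lists share genes, so their counts are not separate evidence: the visceral endoderm markers share Apoa1, Apoa4, Apob and Apoe with the secreted proteins, Amn and Cubn with the receptors and Hnf4a with the regulators. Foxa1, Foxa2 and Sox17 are both regulators and definitive endoderm markers, and Ahsg is both a secreted protein and a hepatocyte marker. The part of these cells in the carrier levels was not tested.

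Genes whose pattern over the 9 libraries was most like each carrier were ranked by the root mean square difference of centred log2(CPM + 0.5), over 15932 genes with a mean of at least 1 CPM. Nearest to Afp were Hkdc1, a hexokinase relative (0.137), Cdh6, a cadherin (0.161), Tmprss2, a membrane serine protease (0.256), Nxf7 (0.276) and the transcription factor gene Maf (0.359). Hkdc1 was at 0.295, 61.0 and 111 CPM in EBD2, EBD5 and EBD6, and Cdh6 at 0.124, 50.3 and 111 CPM. Nearest to Ttr were Tmprss2 (0.281), Maf (0.315), Afp itself (0.399), Prss12 (0.420) and Tfec (0.434). Prss12 and Tfec were lower in EBD6 than in EBD5 in mean level, at 66.9 against 99.2 CPM and 49.9 against 84.5 CPM.

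Rbp4 and Trf had other neighbours. Nearest to Rbp4 were the protease gene Prss23 (0.174), the thrombospondin gene Thbs1 (0.237), Plac8 (0.237), the calcium-binding S100g (0.249) and the sialyltransferase gene St3gal1 (0.253). Nearest to Trf were Cd99l2 (0.130), Zeb2 (0.136), Rab11fip5 (0.143), Emp2 (0.158) and Gm26542 (0.160), of which Rab11fip5 stood at 24.1, 63.1 and 105 CPM. Among the carriers, Ttr was the 7th nearest gene to Afp, Rbp4 the 51st (1.04) and Trf the 836th (2.47). These distances describe 9 libraries that fall into 3 groups, and carry no test.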

How the data were processed

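RNA-seq was made from 3 libraries per group. Per the labels' protocols, Trizol RNA was selected on oligo-dT beads, prepared with the KAPA RNA Hyperprep kit and run on HiSeq and NovaSeq instruments. The authors deposited expected counts per gene, estimated read counts that were not scaled to depth or length. The submitters' processing notes name the build mm10 and the tools RSEM 1.3.30, STAR 2.7.10a, cutadapt 1.18, DESeq2 1.38.3 and edgeR 3.40.2; annotation release and strand setting were not given in the sources used here. A second table held the EBD6 values again, identical in all 54233 rows. Of the values per library, 90.9% to 94.6% were whole. One row named no gene, took at most 0.0157% of counts and was left out.

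Expected counts were rounded. Symbols, positions and exon lengths came from GENCODE M21, which held 54079 of the IDs (99.7%), and promoter windows from RefSeq GRCm38.p6. A chi-square test of library pairs used genes with 20 counts or more. Genes kept by filterByExpr (16168) were tested after TMM scaling by the quasi-likelihood F test of edgeR 4.0.16 in R 4.3.3, all 7 samples in one fit with 4 residual degrees of freedom and a biological coefficient of variation of 6.72%, and Benjamini-Hochberg adjustment over all tested genes, with calls at 0.05; the procedure was tested on simulated data. The SE is the log2 fold change over the square root of F. With 1 to 3 counts in a group a ratio with a 95% counting interval is given. The values are read counts, not counts of molecular identifiers, so intervals and limits cover counting error only.

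Members and gene lists were chosen with earlier results of these data known. Named genes are the 5 carriers, list members, the 5 genes most like each tested carrier, and up to 2 chromosomal neighbours on each side; Gm43449 and Gm20425 are named as overlapping genes. Alternatives were limma-voom (limma 3.58.1), DESeq2 1.42.0 and its size factors, other filters, a test against a fold of 1.5, other sample sets, a replicate block, GC and length bins, another gene length, and leaving out each library. Some genes of the lists are not reported here by name but are in the lists' counts.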

Additional observations from a re-analysis of the deposited data

How the results depend on the processing

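Of 243 fold change values checked with a test under alternatives for 12 results, 241 kept their direction and their side of the threshold and none reversed. Not all of these values could move. For Ttr against EBD2 the log2 value is the count ratio, so other methods and filters changed only its adjusted p. The second EBD6 table holds identical values, and the test against a fold of 1.5 keeps the main log2 value, so direction was fixed in both. In EBD6 against EBD5, Trf (log2 0.71) was not called when tested against a fold of 1.5 (edgeR adjusted p = 0.243), and Ttr was called with no filter on low counts (log2 0.24, edgeR adjusted p = 0.0293); that fit tests 33137 genes, and the cause was not tested. With a test against a fold of 1.5, 5606, 5317 and 4918 genes were called in EBD5 against EBD2, EBD6 against EBD5 and EBD6 against EBD2, where 11319, 11356 and 10685 were called otherwise. Centring genes in bins of GC and length, which has no test, moved 6 of 12 values by over 1 SE: to 1.04 for Afp, 0.81 for Ttr, 0.28 for Trf and 0.23 for Rbp4 in EBD6 against EBD5, and to 8.30 for Ttr and 4.75 for Rbp4 in EBD5 against EBD2; the cause was not tested. With the longest transcript for length, 3 of 5 carriers kept their place in the EBD2 order, since Afp and Ttr, at 8 and 3 counts, traded places. Leaving out 1 library at a time, log2 values for EBD5 against EBD2 ranged from 7.08 to 7.68 for Afp, 0.95 to 1.36 for Trf and 4.33 to 4.51 for Rbp4; in EBD6 against EBD5 it ranged from 0.88 to 0.96 for Afp, 0.06 to 0.26 for Ttr, 0.63 to 0.86 for Trf and 0.68 to 0.82 for Rbp4. Without EBD5 replicate 2, the Ttr value of that comparison was 0.06. Deviations of same-numbered libraries from their group means had correlations of -0.09 to 0.05. These values cannot exclude pairing, since the deviations also hold counting noise, and the labels do not say whether the numbers pair samples. Counting EBD5 replicates 1 and 3 as 1 sample gave calls for 4, 3 and 4 carriers, and for 11290, 11216 and 10896 of 17133 genes. With the replicate block on 9 separate libraries, 4, 3 and 4 carriers were called, and 11512, 11678 and 11452 genes. In that fit the log2 values in EBD5 against EBD2 were 7.27 for Afp, 1.19 for Trf and 4.42 for Rbp4. Depth limits Ttr and Afp in EBD2 and Alb throughout.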
